A study of Mus musculus with 26 samples.

Results

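The elastic fibre genes are 10 genes whose products build or assemble elastic fibres: Eln, Fbn1, Fbn2, Fbln1, Fbln2, Fbln5, Efemp1, Efemp2, Emilin1 and Mfap4. They were taken by name from 2 tables of RNA-seq read counts, each of which lists 41442 genes, and all 10 were found in both tables. All 10 also passed the filter on low counts in both, with 246 to 55917 reads per library in the fetal table and 70 to 50499 in the uterine table. Membership was set by gene name, with no threshold on a measured value.

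Elastic fibres let a tissue stretch and recoil. Their core is elastin, secreted as the soluble monomer tropoelastin and cross-linked by lysyl oxidases, and it is laid down on a scaffold of microfibrils whose main proteins are the fibrillins. Fibulins, EMILIN and microfibril-associated glycoproteins bind elastin, fibrillin or the cross-linking enzymes and take part in assembly, and microfibrils also hold latent TGF-beta and BMP growth factors in the matrix. Mesenchymal and smooth muscle cells are the usual makers of these proteins.

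The study profiled RNA from sorted mesenchymal cells of the mouse reproductive tract. Gli1+ cells came from the mesonephros, the fetal tissue next to the gonad that contains the Wolffian and Müllerian ducts, of XX and XY fetuses at E14.5 and E16.5. Gli1+ and Amhr2+ cells came from the neonatal uterus of females, with the age given as E19.5. Each of these 6 groups had 3 libraries, 18 in all, and open chromatin was mapped by ATAC-seq in the fetal cells.

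Gli1+ cells carried Gli1-CreER and Rosa-Tomato, a Cre enzyme under the control of Gli1, a Hedgehog target gene, and a red fluorescent reporter that Cre switches on for good. Amhr2+ cells carried Amhr2-Cre and the same reporter, where Amhr2 is the receptor of anti-Müllerian hormone. All dams, as the labels read, received 1 mg tamoxifen at E12.5 and again at E13.5, so XX, XY, Gli1+ and Amhr2+ samples share that exposure. A sorted cell is one whose Cre had been active, at whatever level the gene itself stood on the day of collection. The labels do not say how many animals or litters a library holds, so p-values measure the spread between these libraries, which may be technical.

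Library totals were 23382983 to 64602477 counted reads in the fetal table and 28709191 to 37541045 in the uterine table, and 3 reads corresponded to 0.0485 to 0.126 and 0.0778 to 0.102 CPM. CPM is the read count scaled to a common library total after TMM scaling, a correction for differences in RNA composition. Fibroblastic mesenchyme markers, collagen genes among them, summed to 27041 to 67980 CPM in every library. The summed levels of several marker lists for other cell types stayed low, at no more than 123 CPM, but Efemp1 and fetal Fbln5 lay no higher. They were 22.2 to 72.7 CPM for 7 epithelial genes and 23.8 to 123 CPM for 5 endothelial genes. The 4 immune genes summed to 10 to 79.2 CPM and the 3 germ cell genes to 0.475 to 6.53 CPM. The 5 erythroid genes summed to 1.67 to 118 CPM and the 5 mesothelial genes to 22.8 to 93.0 CPM. At E14.5 the mesothelial sums were 75.3 to 93.0 CPM in XY and 53.0 to 64.9 CPM in XX libraries. At E16.5 they were 61.0 to 80.9 CPM in XY and 22.8 to 57.5 CPM in XX libraries. The 5 gonadal somatic genes summed to 37.2 to 120.2 CPM and the 5 neural and glial genes to 9.57 to 14.7 CPM. Gonadal somatic sums at E16.5 were 59.3 to 67.4 CPM in XY and 41.1 to 45.9 CPM in XX libraries. Epithelial sums were also higher in XY at both ages, while erythroid sums at E16.5 were higher in XX. The part of these lists in the results was not tested. Pericyte markers (5 genes) were not low. Their fetal sums ran from 438 CPM (E14.5 XY) to 537 CPM (E16.5 XY). Amhr2+ libraries had pericyte sums of 426 to 601 CPM, and Gli1+ libraries of the uterus 588 to 790 CPM. With age 3 pericyte genes rose and 1 fell in XX (21% and 18.6% of all genes), and 4 rose and 1 fell in XY (13.1% and 10.2%). Between the sexes at E16.5, 1 pericyte gene was called higher in XX (13.2% of all genes) and 2 lower (14.1%). Their part in the results was not tested. Smooth muscle markers, given below with Efemp1, were not low either. Because the RNA is from bulk sorted cells, fewer cells of a type and less RNA per cell cannot be told apart in any result that follows.

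The DNA at the starts of these genes was open in this tissue as far as the deposited peak list shows. That list of 71040 ATAC-seq peaks was made over all fetal samples together and has no heights, so it carries no comparison of sexes or ages. Each of the 10 genes had a peak covering an annotated start. RefSeq promoter windows run from 250 bases before to 50 bases after a start on GRCm38.p6. They were at hand for 7 of the 10 genes (11 windows), and every window overlapped a peak, by 57 to 300 bases. The share of all genes or of all windows with a peak was not computed, so these counts do not set the 10 genes apart. Windows of 4 genes are printed here, 5′ to 3′ on the strand given: Efemp1 and Emilin1, whose difference between the sexes changed with age, and Fbln1 and Fbln2, which were on opposite sides between the sexes at both ages. Capitals mark every match, on either strand, to GGGCGG (the core bound by SP and KLF factors), TGANTCA (AP-1) or CAGAC (an element bound by SMADs). The windows lie at chr11:28852955-28853254 (Efemp1, plus strand), chr5:30913536-30913835 (Emilin1, plus strand), chr15:85205758-85206057 (Fbln1, plus strand) and chr6:91212514-91212813 (Fbln2, plus strand).
Efemp1: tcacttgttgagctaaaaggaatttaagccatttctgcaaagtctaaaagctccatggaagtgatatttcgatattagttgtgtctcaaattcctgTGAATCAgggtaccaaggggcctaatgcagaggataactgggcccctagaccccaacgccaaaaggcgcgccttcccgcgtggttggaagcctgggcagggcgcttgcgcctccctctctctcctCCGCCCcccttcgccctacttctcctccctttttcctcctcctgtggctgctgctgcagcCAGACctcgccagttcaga
Emilin1: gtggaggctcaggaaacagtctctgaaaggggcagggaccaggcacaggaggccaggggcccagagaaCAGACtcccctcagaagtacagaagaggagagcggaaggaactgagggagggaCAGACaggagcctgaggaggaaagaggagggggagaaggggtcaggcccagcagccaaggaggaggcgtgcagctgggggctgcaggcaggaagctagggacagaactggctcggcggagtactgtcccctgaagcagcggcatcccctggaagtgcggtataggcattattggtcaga
Fbln1: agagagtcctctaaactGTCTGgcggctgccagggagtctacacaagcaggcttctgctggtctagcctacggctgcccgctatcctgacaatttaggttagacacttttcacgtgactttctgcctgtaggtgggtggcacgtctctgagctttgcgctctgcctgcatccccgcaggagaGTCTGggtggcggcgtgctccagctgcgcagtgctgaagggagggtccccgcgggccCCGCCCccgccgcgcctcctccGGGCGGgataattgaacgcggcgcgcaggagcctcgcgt
Fbln2: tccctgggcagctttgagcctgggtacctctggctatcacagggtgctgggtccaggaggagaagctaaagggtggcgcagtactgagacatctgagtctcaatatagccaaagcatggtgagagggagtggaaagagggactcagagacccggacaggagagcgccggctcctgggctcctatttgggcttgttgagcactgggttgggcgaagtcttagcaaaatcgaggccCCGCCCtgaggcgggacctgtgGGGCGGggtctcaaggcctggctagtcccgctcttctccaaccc

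GGGCGG occurred in 8 of the 11 windows of these genes and in 35.7% of all 32851 windows of that length in the table. CAGAC occurred in 7 of the 11 and in 49.6% of all windows. TGANTCA was in the Efemp1 window alone among the 11, and in 7.81% of all. The Efemp1 match reads TGAATCA and fits only the loose form, so it is not shown to be an AP-1 site. No window of these genes held TATAAA (13.6% of all windows), CATTCC, the TEAD motif (14.7%), GACCACCCA, the GLI motif (0.253%), or a CArG box, the element of serum response factor (1.63%). The marked motifs in the 4 printed windows did not overlap one another. Fbln1 had another window, at chr15:85205699-85205998, that is not printed. It overlaps the printed one and held 2 CAGAC matches and no GGGCGG. Several windows belong to the same gene and overlap, so these shares describe letters and compare nothing.

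The 10 genes together took up 0.315% to 0.439% of all counted reads in the fetal libraries. In the uterus the share was 0.371% to 0.388% in Amhr2+ libraries and 0.456% to 0.501% in Gli1+ libraries. Per length of the gene's exons (RPKM, which is CPM per kilobase), the summed level was 676 ± 18.8 in E14.5 XX and 654 ± 34.1 in E14.5 XY cells (SD, n = 3). It was 839.8 ± 19.2 in E16.5 XX and 921 ± 13.1 in E16.5 XY cells, so that no E16.5 library fell within the range of the E14.5 libraries. In the uterus it was 629 ± 21.2 in Amhr2+ and 876 ± 26.3 in Gli1+ cells, again without overlap. Mfap4 alone stood at 239 RPKM in E14.5 XX and 405 RPKM in E16.5 XX cells, and at 270 and 410 RPKM in XY cells. It stood at 189 RPKM in uterine Amhr2+ and 340 RPKM in uterine Gli1+ cells, so a large part of these differences in the sum lay in that gene. The uterine libraries were made with another kit, and levels are compared only within a table.

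Mfap4, a microfibril-associated glycoprotein that binds tropoelastin, had the highest RPKM of the 10 genes in all 6 groups and made up 30.0% to 48.3% of their summed RPKM. Emilin1, a glycoprotein at the interface of elastin and microfibrils, came next in 5 groups. In E16.5 XX cells, 1 of these groups, Emilin1 (95.3 ± 7.33 RPKM) and Fbln1 (89.2 ± 2.09 RPKM) were within their spread. In uterine Gli1+ cells Fbn2 stood at 107 RPKM and Emilin1 at 101 RPKM, within their spread. Eln itself accounted for 2.40% to 5.65% of the summed RPKM in the fetal groups and for 5.49% and 6.74% in uterine Amhr2+ and Gli1+ cells. Efemp1 was lowest in both XX groups and in both uterine groups, at 0.198% to 0.860% of the sum, whereas Fbln5 was lowest in both XY groups. In E14.5 XX cells Efemp1 (5.60 ± 0.833 RPKM) and Fbln5 (6.28 ± 0.510 RPKM) were within their spread. In E16.5 XY cells Efemp1 reached 54.6 ± 8.07 RPKM, 5.93% of the sum, and was not separated from its neighbours Fbn1 and Efemp2 in that order.

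**Figure D1:**
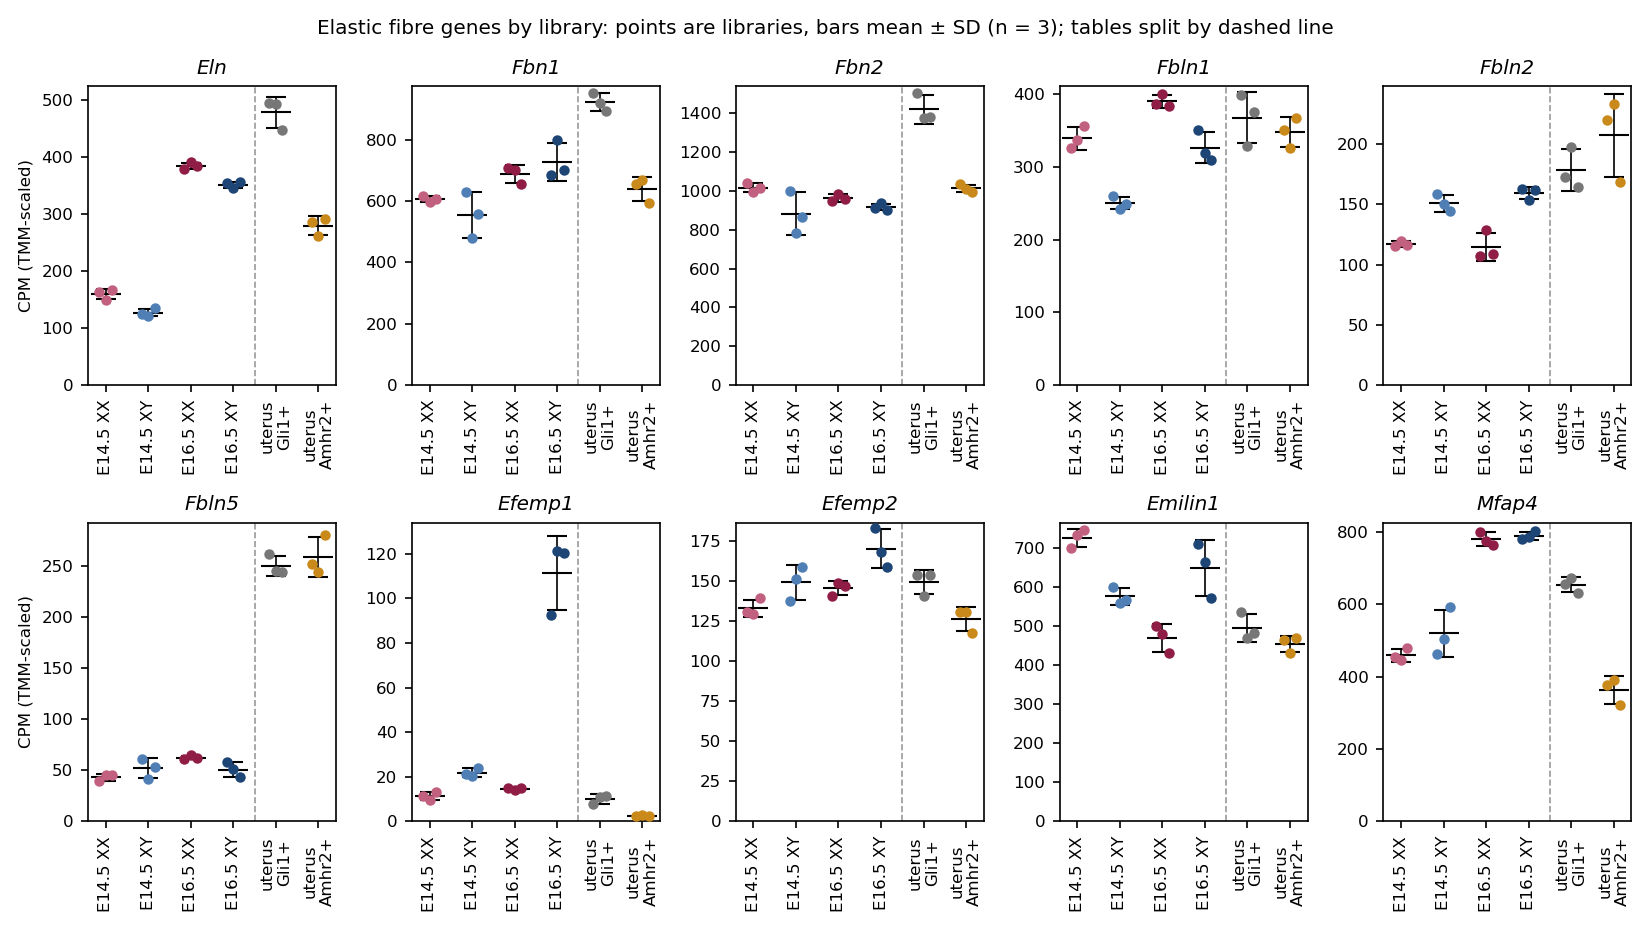
CPM of each of the 10 elastic fibre genes in the 18 RNA libraries, with 1 panel per gene, points for libraries and bars for the mean ± SD of 3 libraries in each of the 6 groups. Eln and Mfap4 are higher in all E16.5 than in all E14.5 libraries, and Efemp1 stands apart in the 3 E16.5 XY libraries at 92.3 to 121 CPM.

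The design compares the sexes at each age, the ages in each sex, whether the sex difference changed with age, and the 2 uterine populations. In E14.5 cells 5 of the 10 genes had an adjusted p under 0.05 by the quasi-likelihood test of edgeR, against 6.28% of the 17858 genes tested. Eln, Fbln1 and Emilin1 were higher in XX (2.59% of all genes were called higher) and Fbln2 and Efemp1 lower (3.69%). At E16.5 again 5 of 10 passed, against 27.3% of all genes: Fbln1 higher in XX (13.2%), and Fbln2, Efemp1, Efemp2 and Emilin1 lower (14.1%). The median log2 difference of the 10 genes was -0.02 at E14.5 and -0.05 at E16.5, beside -0.01 and 0.01 over all genes tested.

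From E14.5 to E16.5, 6 of the 10 genes changed in XX cells, where 39.6% of all genes did: Eln, Fbln1, Fbln5, Efemp1 and Mfap4 rose (21% of all genes rose) and Emilin1 fell (18.6% fell). In XY cells 5 of the 10 changed, against 23.3% of all genes, and all 5 rose (13.1% of all genes rose and 10.2% fell): Eln, Fbn1, Fbln1, Efemp1 and Mfap4. Their median log2 change with age was 0.19 in XX and 0.29 in XY cells, beside 0.00 and -0.01 over all genes. The 7 fibroblastic mesenchyme markers also moved with age, from sums of 40995 to 43016 CPM to 58363 to 67980 CPM in XX and from 35461 to 41226 CPM to 47935 to 59978 CPM in XY libraries. Of these 7, 5 rose and 2 fell in XX and 5 rose and 1 fell in XY, with median log2 changes of 0.63 and 0.47, and their part in the changes of the elastic fibre genes was not tested. The sex difference itself changed with age for 2 of the 10, Efemp1 and Emilin1, against 10% of all genes, and both moved toward XY (5.36% of all genes did, and 4.66% moved toward XX). These 5 fetal comparisons reuse the same 12 libraries, so each library group enters several of them and their calls are not independent.

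In the neonatal uterus 6 of the 10 genes differed between the populations, against 23.9% of the 16195 genes tested, and all 6 were lower in Amhr2+ than in Gli1+ cells (13.7% of all genes were lower and 10.1% higher): Eln, Fbn1, Fbn2, Efemp1, Efemp2 and Mfap4. The median log2 difference of the 10 was -0.37, beside 0.00 over all genes tested. Summed fibroblastic mesenchyme markers (7 genes) were 27041 to 28975 CPM in Amhr2+ and 56763 to 64167 CPM in Gli1+ libraries, and 5 of the 7 were called lower in Amhr2+ cells. Their part in the uterine results was not tested. Of the 6 epithelial genes tested, 4 were called higher in Amhr2+ cells, with sums of 71.0 to 72.7 against 30.8 to 42.6 CPM, and their part was not tested either.

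**Figure D2:**
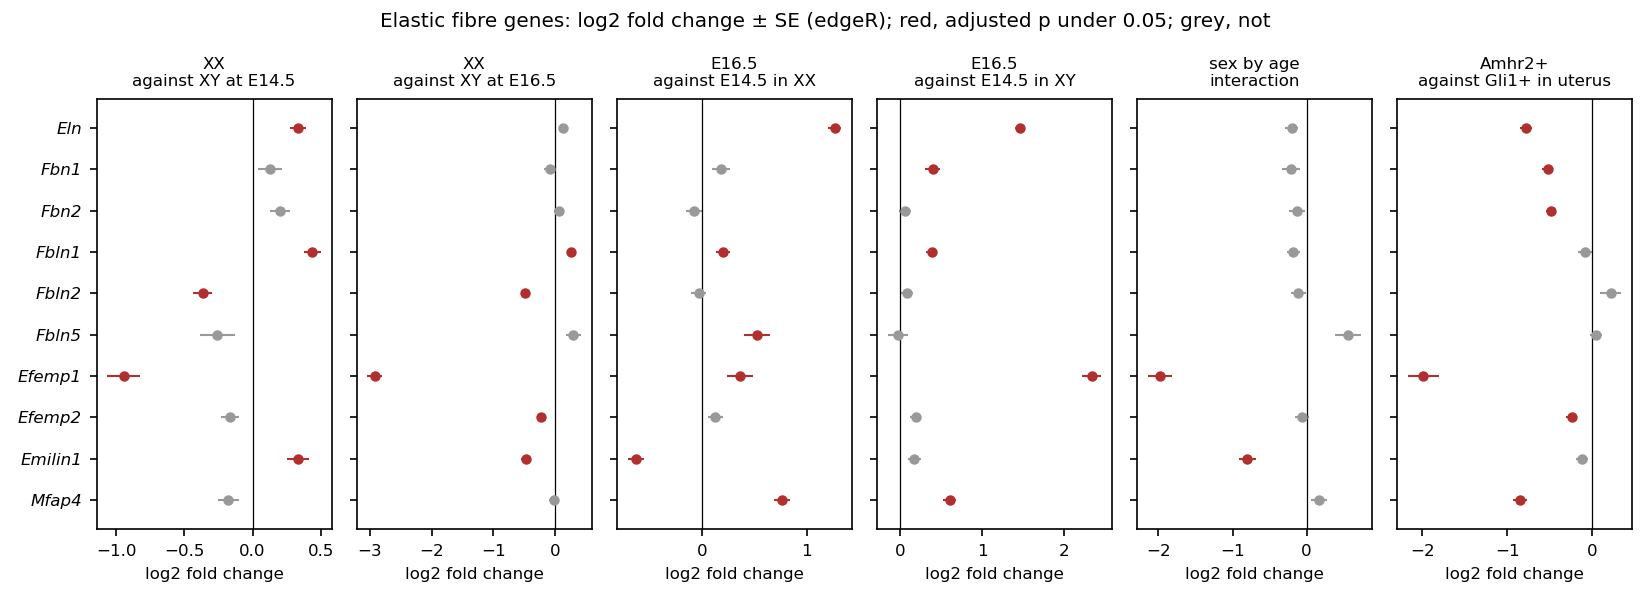
Log2 fold change of the 10 elastic fibre genes in each comparison ± SE from edgeR, in red where the adjusted p was under 0.05 and grey otherwise; the x axis differs between panels. Efemp1 is the gene called in all 6 comparisons, and the uterine calls all lie on the Gli1+ side.

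Eln encodes tropoelastin, and it lies on chromosome 5 at 134702593 to 134747323 on the minus strand (mm10). Its level was 163, 149.7 and 166 CPM in the E14.5 XX libraries and 125, 122 and 134 CPM in the E14.5 XY libraries. At E16.5 it was 378, 390.5 and 384 CPM in XX and 354, 345 and 355 CPM in XY. Every E16.5 library was above every E14.5 library. Eln rose 2.41-fold in XX (log2 1.27, SE 0.0603, adjusted p 6.21e-10) and 2.77-fold in XY cells (log2 1.47, SE 0.0606, adjusted p 3.87e-10). At E14.5 it was 1.26-fold higher in XX than in XY (log2 0.33, adjusted p 0.00324). At E16.5 the XX libraries again lay above the XY libraries, but the log2 difference was 0.13 and did not pass (adjusted p 0.123). The interaction was -0.20 on the log2 scale (adjusted p 0.157), so a change in the sex difference was not shown. In the uterus the libraries read 286, 261 and 292 CPM in Amhr2+ and 496, 492 and 447 CPM in Gli1+ cells, 1.71-fold higher in Gli1+ without overlap (log2 -0.78, adjusted p 0.000195). A gene model on the opposite strand overlaps Eln and had at most 54 reads.

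Fbn1 and Fbn2 encode the fibrillins, the backbone of the microfibrils. Fbn1 lies on chromosome 2 at 125300594 to 125507993 and Fbn2 on chromosome 18 at 58008623 to 58209926, both on the minus strand. Fbn1 stood at 617, 598 and 609 CPM in E14.5 XX and at 629, 479 and 558 CPM in E14.5 XY libraries. E16.5 libraries read 709, 704 and 655 CPM in XX and 686, 800.0 and 701 CPM in XY. The sexes overlapped at both ages, and E14.5 XY replicate 2 was the lowest library. Fbn1 rose with age in XY cells, 1.31-fold (log2 0.39, adjusted p 0.00387). In XX cells the log2 change was 0.18 (adjusted p 0.114), and the interaction did not pass (adjusted p 0.332).

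Fbn2, the fibrillin best known from embryonic tissue, was between 784 and 1041 CPM in all 12 fetal libraries, and none of the fetal comparisons called it. Its group means were 1016 ± 23.5 (E14.5 XX), 883 ± 110.1 (E14.5 XY), 963 ± 20.0 (E16.5 XX) and 917 ± 16.4 CPM (E16.5 XY). The widest group, E14.5 XY, ran from 784 to 1002 CPM. Without its replicate 1 the sex difference at E14.5 did pass, at an adjusted p of 0.00697 against 0.15 with all libraries. In the uterus both fibrillins were higher in Gli1+ cells. Fbn1 read 658, 669 and 595 CPM in Amhr2+ and 952, 922 and 893 CPM in Gli1+ libraries (1.44-fold, log2 -0.53, adjusted p 0.000968). Fbn2 read 1034, 1011 and 993 CPM in Amhr2+ and 1504, 1374 and 1382 CPM in Gli1+ libraries (1.40-fold, log2 -0.49, adjusted p 0.000911). Neither gene's uterine groups overlapped.

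Fbln1 encodes a fibulin found in basement membranes and elastic fibres, and lies on chromosome 15 at 85205949 to 85286535 on the plus strand. It was at 325, 336 and 356 CPM in E14.5 XX and at 259.5, 242 and 249 CPM in E14.5 XY libraries. E16.5 levels were 386, 400.2 and 383 CPM in XX and 350.2, 319 and 309.5 CPM in XY libraries. XX libraries were above XY libraries at both ages without overlap. The XX level was 1.35-fold higher at E14.5 (log2 0.44, SE 0.0627, adjusted p 0.000488) and 1.2-fold higher at E16.5 (log2 0.26, SE 0.0625, adjusted p 0.00595). It rose with age in XY (log2 0.38, adjusted p 0.000312) and in XX cells (log2 0.20, adjusted p 0.0188). The rise in XX no longer passed without E14.5 XX replicate 1 (adjusted p 0.0892), E14.5 XX replicate 2 (0.0634) or E16.5 XX replicate 2 (0.0715), or with scaling by library size only (0.0842). The uterine populations overlapped for Fbln1, at 325 to 367 and 329 to 399 CPM (log2 -0.08, adjusted p 0.517).

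Fbln2, a fibulin that binds fibrillin and elastin, lies on chromosome 6 at 91212455 to 91272540 on the plus strand and was the counterpart of Fbln1 between the sexes. Its libraries read 116, 119.7 and 116 CPM in E14.5 XX and 159, 150 and 144 CPM in E14.5 XY cells. At E16.5 they read 107, 128 and 109 CPM in XX and 163, 153 and 161 CPM in XY cells. Here the XY libraries were higher at both ages without overlap. The XY level was 1.29-fold higher at E14.5 (log2 -0.36, SE 0.0702, adjusted p 0.00494) and 1.39-fold higher at E16.5 (log2 -0.48, SE 0.070, adjusted p 9.93e-05). Fbln2 did not pass in either comparison of ages, with log2 changes of -0.03 in XX and 0.08 in XY. In the uterus it ranged over 168 to 233 CPM in Amhr2+ and 164 to 198 CPM in Gli1+ libraries, which overlap (log2 0.22, adjusted p 0.249). Without Amhr2+ replicate 3, the lowest of its group, this difference passed (adjusted p 0.0299).

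Fbln5 encodes the fibulin that tethers elastin to integrins and to cross-linking enzymes, and lies on chromosome 12 at 101746565 to 101819055 on the minus strand. In fetal cells it was at 39.4, 45.1 and 45.8 CPM in E14.5 XX and at 61.4, 41.8 and 53.0 CPM in E14.5 XY libraries. At E16.5 it was at 61.1, 64.7 and 62.0 CPM in XX and at 58.0, 51.2 and 43.4 CPM in XY libraries. It rose 1.44-fold with age in XX cells (log2 0.53, adjusted p 0.00432), with no overlap of the ages, and overlapped between ages in XY cells (log2 -0.03, adjusted p 0.888). Whether the 2 changes differ was not shown, since the interaction of 0.56 did not pass (adjusted p 0.0619). It passed without E14.5 XY replicate 2 (0.00809) and without E16.5 XY replicate 1 (0.0190). The sex difference at E16.5 also passed without E16.5 XY replicate 1 (0.0269). In the uterus Fbln5 was at 259 ± 19.2 CPM in Amhr2+ and 251 ± 9.74 CPM in Gli1+ cells (SD, n = 3), and the libraries overlapped.

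Efemp1, the fibulin family member also called fibulin-3, showed the widest range of the 10 genes. It lies on chromosome 11 at 28853204 to 28926743 on the plus strand, and its promoter window is printed above. It read 11.3, 9.79 and 13.2 CPM in E14.5 XX and 21.4, 20.3 and 24.1 CPM in E14.5 XY libraries. At E16.5 it read 15, 14 and 15.1 CPM in XX and 92.3, 121 and 120.4 CPM in XY libraries. All XY libraries were above all XX libraries, and the E16.5 XY libraries stood apart from the other 9. Efemp1 was 1.92-fold higher in XY at E14.5 (log2 -0.94, SE 0.121, adjusted p 0.000186) and 7.57-fold higher in XY at E16.5 (log2 -2.92, SE 0.119, adjusted p 1.5e-10). The sex difference widened by -1.98 on the log2 scale (SE 0.166, adjusted p 1.84e-06).

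With age Efemp1 rose 5.07-fold in XY cells (log2 2.34, SE 0.116, adjusted p 2.01e-09). In XX cells it rose 1.29-fold (log2 0.36, SE 0.122, adjusted p 0.0276). That call was lost without E14.5 XX replicate 1 (adjusted p 0.0808) or 2 (0.13) and without E16.5 XX replicate 1 (0.0715) or 3 (0.0680). In the uterus Efemp1 was at 2.54, 2.70 and 2.37 CPM in Amhr2+ and 7.72, 11.1 and 11.5 CPM in Gli1+ libraries. No uterine libraries of the 2 populations overlapped, and Gli1+ cells were 3.96-fold higher (log2 -1.99, SE 0.183, adjusted p 0.000203).

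Most smooth muscle markers were, like Efemp1, higher in XY than in XX cells. The 8 smooth muscle markers summed to 389.6 to 416 CPM in E14.5 XX, 701 to 999.7 CPM in E14.5 XY, 551 to 655 CPM in E16.5 XX and 1850 to 3052 CPM in E16.5 XY libraries. Called lower in XX were 5 of the 8 at E14.5 (3.69% of all genes) and 7 of the 8 at E16.5 (14.1%), and 0 were called higher. With age all 8 rose in XY cells (13.1% of all genes did). In XX cells 4 rose (21% of all genes), Tagln fell (log2 -0.66, adjusted p 0.0253, with 18.6% of all genes) and 3 did not pass. Myh11, the smooth muscle myosin heavy chain, was at 7.68, 5.69 and 5.90 CPM in E14.5 XX and 19.1, 20.1 and 30.2 CPM in E14.5 XY libraries. In E16.5 cells Myh11 averaged 15.5 ± 1.76 CPM in XX (SD, n = 3) and stood at 215, 386 and 342 CPM in the XY libraries. In the uterus the summed markers were 1310 to 1959 CPM in Amhr2+ and 2298 to 2558 CPM in Gli1+ libraries. There 2 of the 8 were called, both lower in Amhr2+ cells (13.7% of all genes were lower). The part of smooth muscle cells in the Efemp1 results was not tested. Nor was that of the mesothelial, gonadal somatic and epithelial markers, whose XY sums were also higher, as given above.

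**Figure D3:**
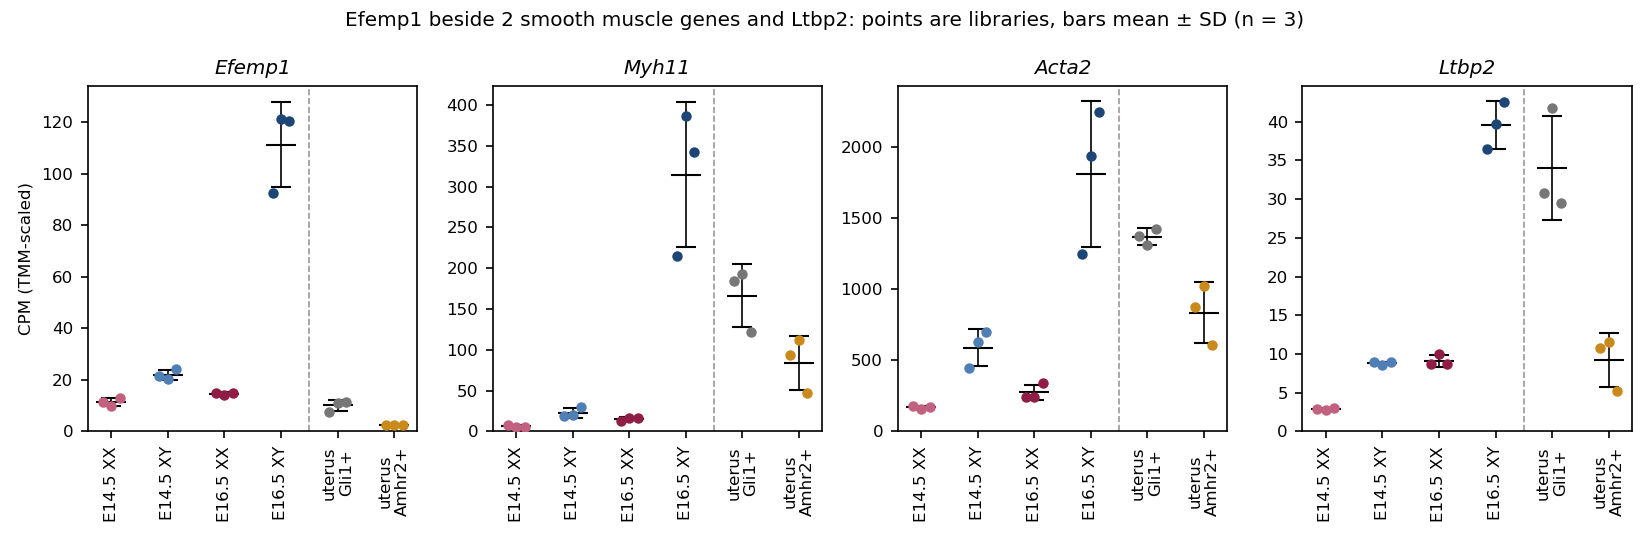
CPM of Efemp1, of the smooth muscle genes Myh11 and Acta2 and of the microfibril partner Ltbp2 in all 18 libraries, with points for libraries and bars for the mean ± SD of 3 libraries. In all 4 panels the 3 E16.5 XY libraries are the highest of the fetal libraries, and the y axis differs between panels.

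Efemp2, fibulin-4, brings lysyl oxidase to tropoelastin and lies on chromosome 19 at 5474688 to 5481853 on the plus strand. It varied little, from 129 to 183 CPM in the fetal libraries. The group means were 133 ± 5.37 (E14.5 XX), 149 ± 10.8 (E14.5 XY), 146 ± 4.39 (E16.5 XX) and 170.3 ± 12.3 CPM (E16.5 XY). At E16.5 the XY libraries, at 159 to 183 CPM, lay above the XX libraries at 141 to 149 CPM. The XY level was 1.17-fold higher (log2 -0.23, adjusted p 0.0225), a call lost without E16.5 XX replicate 1 (0.0772) or E16.5 XY replicate 1 (0.0694). With age the log2 change was 0.13 in XX and 0.19 in XY cells, and neither passed. The XY change passed without E14.5 XY replicate 3 (0.0443) or E16.5 XY replicate 3 (0.0221), and with DESeq2 (0.0344).

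In the uterus Efemp2 was at 131, 131 and 117 CPM in Amhr2+ and at 154, 141 and 154 CPM in Gli1+ libraries, without overlap. The Gli1+ level was 1.18-fold higher (log2 -0.24, adjusted p 0.0322). This was the least stable uterine call of the 10 genes. It was lost without Amhr2+ replicate 1, 2 or 3 (adjusted p 0.0848, 0.0616 and 0.0841), without Gli1+ replicate 1 or 3 (0.102 and 0.0861), and with scaling by library size only (0.102).

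Emilin1 lies on chromosome 5 at 30913402 to 30921277 on the plus strand, and its sex difference turned between the ages. It was at 702, 734 and 746 CPM in E14.5 XX and at 602, 561 and 569 CPM in E14.5 XY libraries. At E16.5 it was at 502, 479 and 431 CPM in XX and at 712, 665 and 572 CPM in XY libraries. XX libraries were the higher ones at E14.5 and XY libraries at E16.5, with no overlap at either age. The log2 difference was 0.33 at E14.5 (SE 0.0801, adjusted p 0.0197) and -0.46 at E16.5 (SE 0.0801, adjusted p 0.000419). Its change with age was -0.80 (SE 0.113, adjusted p 0.000245).

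The E14.5 call of Emilin1 was lost without E14.5 XX replicate 2 (adjusted p 0.0751) or 3 (0.0889) and without E14.5 XY replicate 2 (0.0769) or 3 (0.0872). Within XX cells Emilin1 fell by 0.63 on the log2 scale from E14.5 to E16.5 (SE 0.0803, adjusted p 1.98e-05). Within XY cells the log2 change was 0.17 and did not pass (adjusted p 0.141), and it passed without E16.5 XY replicate 3 (0.0193). In the uterus Emilin1 was at 432 to 469.9 CPM in Amhr2+ and 470.1 to 537 CPM in Gli1+ libraries. The ranges met without overlapping, and the difference did not pass (log2 -0.12, adjusted p 0.242).

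Mfap4 lies on chromosome 11 at 61485431 to 61488900 on the plus strand. It was at 453, 445 and 479.6 CPM in E14.5 XX and at 462, 505 and 591 CPM in E14.5 XY libraries. The E16.5 libraries stood at 800.5, 774 and 763 CPM in XX and at 779, 785 and 801 CPM in XY libraries. All E16.5 libraries were above all E14.5 libraries, and the sexes overlapped at both ages. Mfap4 rose 1.70-fold in XX (log2 0.76, SE 0.0773, adjusted p 1.77e-06) and 1.52-fold in XY cells (log2 0.60, SE 0.0771, adjusted p 2.99e-05). The sex difference at E14.5 passed only without E14.5 XY replicate 1 (adjusted p 0.0330), and was 0.221 with all libraries.

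In the uterus Mfap4 was at 378, 391 and 320.5 CPM in Amhr2+ and at 657, 672 and 632 CPM in Gli1+ libraries, a 1.80-fold higher level in Gli1+ cells without overlap (log2 -0.85, SE 0.0821, adjusted p 0.000255). Mapk7, on the opposite strand, shares 89 bases with Mfap4, and its counts were 10.9% to 19.8% of those of Mfap4 in the fetal libraries and 11.9% to 23.1% in the uterine ones. The fetal kit keeps no strand, so fetal reads in those bases cannot be told apart.

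The other genes of the fibre were read from 3 lists. The 13 microfibril partners include the latent TGF-beta binding proteins and ADAMTS-like proteins. With age 11 of the 13 rose and 1 fell in XX (21% and 18.6% of all genes), and 9 rose and 1 fell in XY cells (13.1% and 10.2%). Ltbp4, which binds fibulins, was at 556 and 1095 CPM in E14.5 and E16.5 XX cells (log2 0.98) and at 611 and 1599 CPM in XY cells (log2 1.39). Ltbp2, a latent TGF-beta binding protein that joins microfibrils, was, like Efemp1, lowest in E14.5 XX and highest in E16.5 XY libraries. Its libraries were at 2.87, 2.83 and 3.04 CPM in E14.5 XX, 8.92, 8.64 and 8.93 CPM in E14.5 XY, 8.67, 10 and 8.69 CPM in E16.5 XX, and 36.5, 39.6 and 42.6 CPM in E16.5 XY. It was lower in XX at both ages (log2 -1.60, adjusted p 7.76e-07, and log2 -2.12, adjusted p 1.55e-10), and the difference widened by -0.52 (adjusted p 0.0241). Adamts17 went the other way at E16.5, higher in XX by 1.25 on the log2 scale (adjusted p 1.16e-08). Thsd4 was the 1 microfibril partner that fell with age in XX (log2 -0.46) and in XY (log2 -0.54).

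Of the 5 cross-linking enzymes, 3 rose and 1 fell with age in XX and 1 rose in XY. The enzyme that rose in both was Lox, the lysyl oxidase that cross-links elastin and collagen. Lox libraries were at 80.9, 83.8 and 94.6 CPM in E14.5 XX, 143, 112 and 137 CPM in E14.5 XY, 307, 282 and 273 CPM in E16.5 XX, and 480.4, 450.2 and 409 CPM in E16.5 XY. Every E16.5 library was above every E14.5 library and every XY library above the XX libraries of its age. The log2 change with age was 1.73 in XX (adjusted p 2.41e-09) and 1.77 in XY (adjusted p 3.58e-09), and the sex difference -0.59 at E14.5 (adjusted p 0.00105) and -0.63 at E16.5 (adjusted p 8.09e-05). Of the 6 fibulin and EMILIN relatives tested, 1 rose and 5 fell with age in XX, and 1 fell in XY. Over all 24 partners tested, 15 rose and 7 fell with age in XX (21% and 18.6% of all genes). In XY 10 rose and 2 fell (13.1% and 10.2%). Their median log2 changes were 0.32 in XX and 0.14 in XY, beside 0.00 and -0.01 over all genes. Between the sexes at E14.5, 1 was called higher in XX (2.59% of all genes were) and 2 lower (3.69%). At E16.5, 8 were called higher in XX (13.2%) and 8 lower (14.1%).

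In the uterus 16 of the 23 partners tested were lower in Amhr2+ cells and 0 were higher, with a median log2 difference of -0.51, while 13.7% of all genes were lower. The 16 were 9 microfibril partners, 4 cross-linking enzymes and 3 relatives. Lox was at 342, 386 and 232 CPM in Amhr2+ and at 663, 797 and 706 CPM in Gli1+ libraries (log2 -1.17, adjusted p 0.004). Adamtsl2, an ADAMTS-like microfibril protein, had a log2 difference of -3.35 (adjusted p 1.67e-05), and Ltbp2 one of -1.87 (adjusted p 0.00484). Mfap5, a microfibril glycoprotein, was at 28.8 CPM in Amhr2+ and 24.1 CPM in Gli1+ cells.

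**Figure D4:**
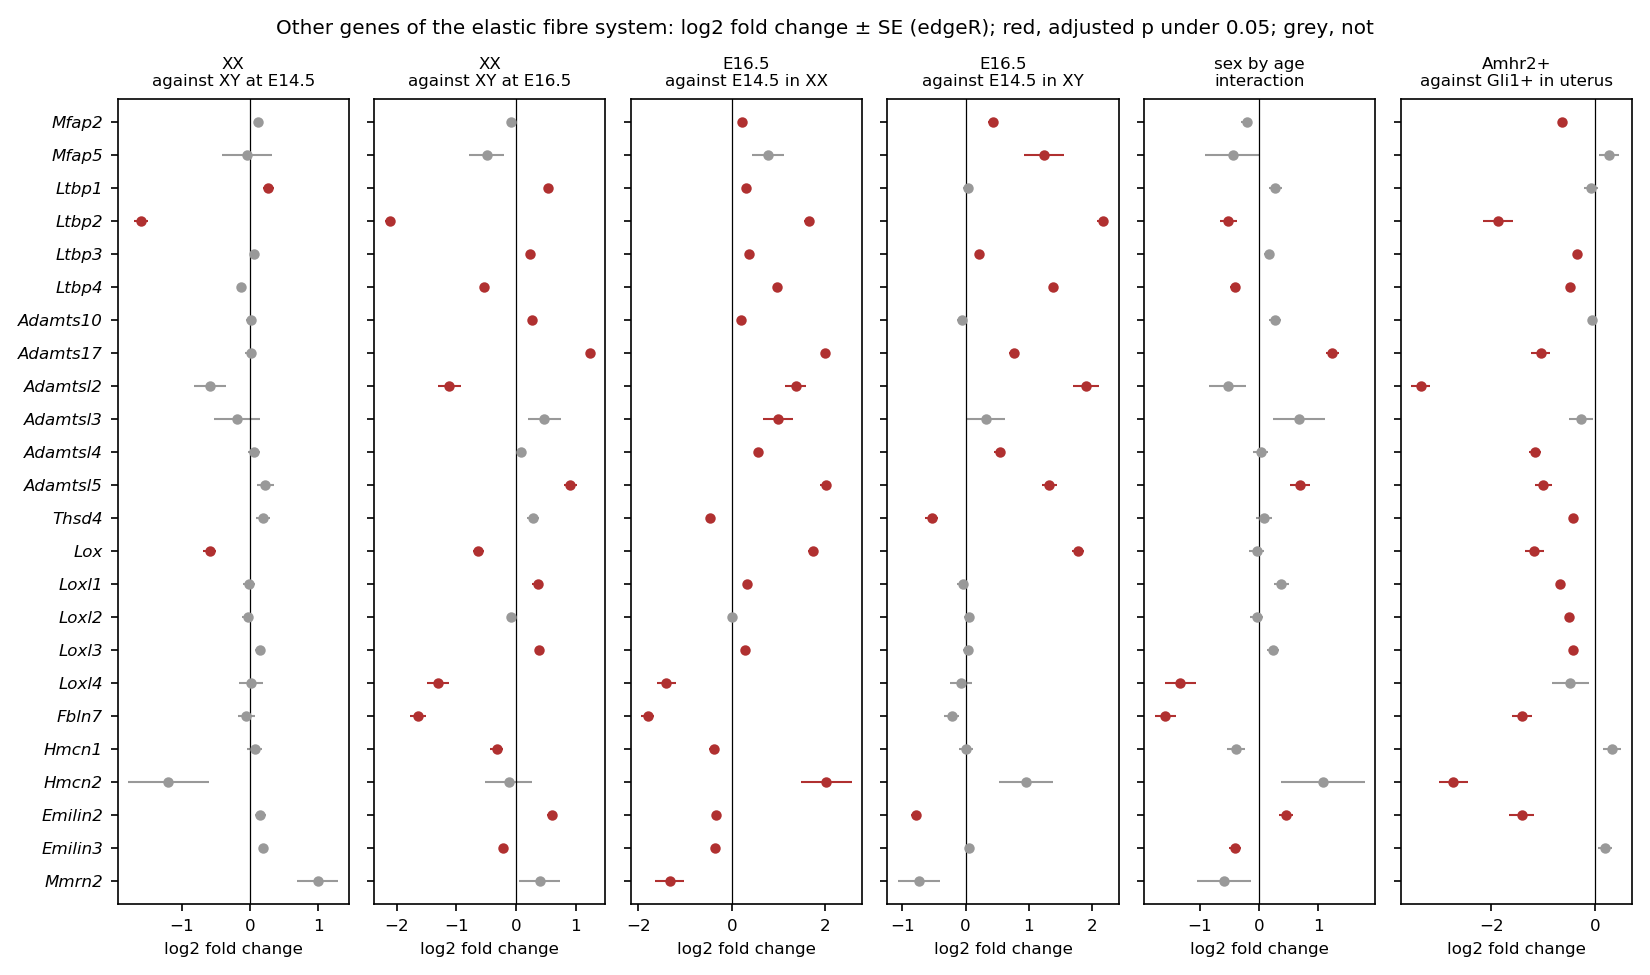
Log2 fold change of the microfibril partners, cross-linking enzymes and fibulin and EMILIN relatives ± SE in the same 6 comparisons, in red where the adjusted p was under 0.05 and grey otherwise; the x axis differs between panels. Lox and Ltbp4 lie above 0 in both comparisons of ages, and all 16 called partners lie below 0 in the uterus.

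For each gene the 3 others with the highest correlation of log2 CPM over the 12 fetal libraries were sought among 9986 genes of at least 10 CPM. These libraries form 4 groups, so the values describe group means more than 12 separate points, and no p is given. Closest to Eln were S100a16 (r = 0.993), Sparcl1 (0.990) and Fmo1 (0.987), with 0.903, 0.903 and 0.557 over the 6 uterine libraries. Closest to Efemp1 were Mpi (0.989), Myh11 (0.989) and Dpysl3 (0.988), with 0.713, 0.755 and -0.949 in the uterus. Closest to Mfap4 were Pnkd (0.990), Adh1 (0.988) and Zcchc5 (0.986), with 0.829, 0.998 and -0.599 in the uterus. Among the genes just named, a high fetal value was thus paired with a value of the opposite sign in the uterus for Dpysl3 and Zcchc5. Opposite signs also occurred for Psma5 (-0.559) and Adi1 (-0.793), close to Fbn2, and Cs (-0.663), close to Fbln2. They occurred for Eno3 (-0.339) and Sult5a1 (-0.606), close to Fbln5, and for all 3 genes closest to Fbln1 (-0.163, -0.0564 and -0.272). The remaining closest genes had positive uterine values. The 6 uterine libraries form 2 groups, between which Fbln1, Fbln2 and Fbln5 did not pass by edgeR (adjusted p 0.517, 0.249 and 0.659). For these genes a uterine value rests mostly on spread within groups, and a small value has no clear sign.

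The peaks inside and around the genes differed in number. Fbn2 had 9 within the gene, Fbln1 had 6, Eln and Fbn1 had 5 each, Fbln2 had 4, Efemp1 had 3, Fbln5, Efemp2 and Emilin1 had 2 each and Mfap4 had 1. Per 10 kb of gene the order turned: Mfap4 had 2.88 peaks, Emilin1 2.54 and Efemp2 2.34, while Fbn2 had 0.446, Fbln5 0.276 and Fbn1 0.241. These numbers were not compared with other genes. For Efemp1 the peak over the start spans 28853133 to 28853433 on chromosome 11, and intronic peaks span 28868759 to 28868929 and 28904743 to 28904853. For Emilin1 the peak over the start spans 30913196 to 30913784 on chromosome 5, and an intronic peak spans 30915979 to 30916244.

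**Figure D5:**
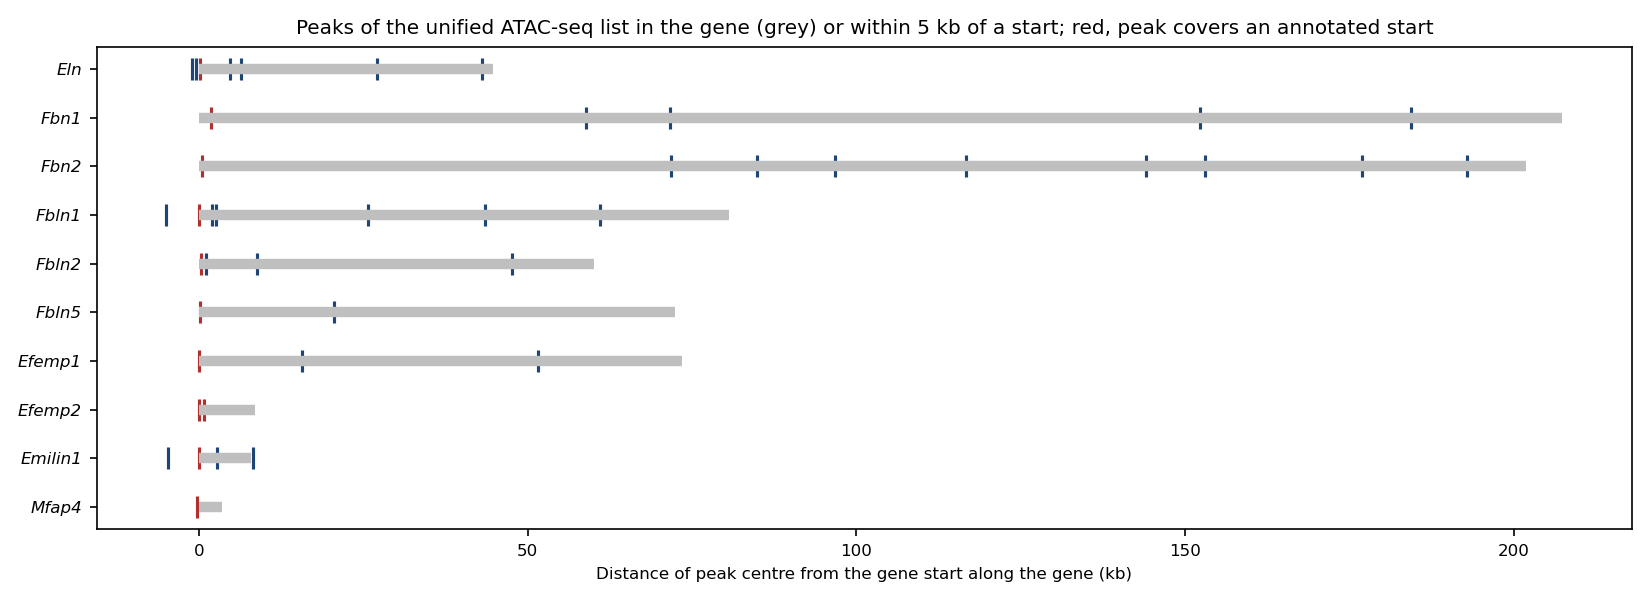
Centres of the unified ATAC-seq peaks within each of the 10 genes (grey bars) or within 5 kb of a start, as distance in kb from the gene start along the gene. Red ticks are peaks that cover an annotated start and blue ticks the others; each gene has a red tick, and the long gene Fbn2 has the most peaks, 9, but only 0.446 per 10 kb.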

How the data were processed

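RNA libraries of 6 groups of 3 were analysed from 2 tables of raw read counts per gene that the authors deposited, each by itself, because the labels' protocols give a non-stranded kit for the fetal and a stranded kit for the uterine libraries. Per the submitters' processing notes, STAR 2.5, featureCounts and Subread 1.5.0-p1 were used with mm10, and Bowtie 1.2, SAMtools 1.3.1, Picard, bedtools 2.24.0 and MACS2 2.1.1 are also named, with no role given. The annotation and the use of strand in counting are not given in the sources used here. The deposited peak list holds positions and no other values, as one list for all ATAC samples, so no ATAC sample was compared.

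Counts were fitted with edgeR 4.0.16 in R 4.3.3 (TMM scaling, filterByExpr by group, robust quasi-likelihood test, Benjamini-Hochberg over all tested genes, threshold 0.05), with one model of 4 group means for the 12 fetal libraries and another for the 6 uterine libraries. Standard errors are the log2 change over the square root of F. RPKM used the union of exons of GENCODE gene models and is approximate. The alternatives were DESeq2 1.42.0, other scalings, no filter, a replicate block, only the libraries compared, and leaving out each library. Floors are 3 counts and cover counting error only. On simulated counts for the sexes at E16.5 (17549 genes) the test recovered 86 of 100 genes changed by a log2 of 1. It recovered 98 of 100 changed by 2, with 7 false calls. For the uterus (16026 genes) it recovered 91 and 98 of 100, with 11 false calls. The simulation gave all genes and groups the same fixed spread beyond counting error. Spread between the real libraries differs between groups, so these figures do not measure performance on the real counts.

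Same-numbered libraries of the sexes deviated together at E16.5 (r of 0.284, 0.115 and 0.396). E16.5 XX replicate 2 also correlated with XY replicate 1, at 0.108, and no label ties a number to a litter. The main tests did not pair libraries, and the replicate block was used only as an alternative. All 10 genes and the called members of the partner lists could be named, with the 3 closest genes by correlation for likeness. The genes and lists were chosen with earlier results of these data known. Mmrn1 had too few reads to be tested. No 2 libraries were identical.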

Additional observations from a re-analysis of the deposited data

Results flagged for a closer look

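The difference between XX and XY cells changed with age for 2 of the 10 genes by a direct test of that change. For Efemp1 the XX minus XY difference moved by -1.98 on the log2 scale from E14.5 to E16.5, from -0.94 to -2.92. For Emilin1 it moved by -0.80, from 0.33 to -0.46, so that the higher sex differed between the ages.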

How the results depend on the processing

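Of the 60 member results, 29 were called, 24 of these kept their call in every alternative, 5 lost it in some and 0 reversed. Over 760 refits, 717 kept direction and side of the threshold, 20 lost a call, 15 gained one and 8 changed sign, none of them a called result. With library size only, Fbn2 with age in XY was -1.1e-05 and Fbln1 in the uterus 0.0032. Leaving out 1 library moved Fbn2 with age in XY over -0.025 (without E14.5 XY replicate 2) to 0.15, Fbln5 with age in XY over -0.17 to 0.099 (without E14.5 XY replicate 1; 0.087 without E16.5 XY replicate 3), Fbln2 with age in XX over -0.12 to 0.020 (without E16.5 XX replicate 1; 0.0069 without replicate 3), and Fbln5 in the uterus over -0.013 (without Amhr2+ replicate 3) to 0.094. The cause was not tested. The summed RPKM of E16.5 XY cells was 908 with unscaled library sizes, against 921.

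Leaving out a library gave 4 to 7 called members between the sexes at E14.5 and 4 to 5 between them at E16.5, 4 to 6 for age in XX, 5 to 7 for age in XY, 2 to 3 for the interaction and 5 to 6 in the uterus. With only the 6 XX libraries 8 members were called for age in XX, Fbn1 (adjusted p 0.00724) and Efemp2 (0.0454) among them. Efemp2 with age in XY passed with RLE scaling (0.0455) and with no filter (0.0411), and the Fbln5 interaction passed with DESeq2 (0.0279). The replicate block gave 5, 5, 6, 5, 2 and 6 called members in the 6 comparisons and changed no member's call. Over all genes, calls for the sexes at E14.5 were 1121 and were 553 to 686 without XX replicate 1, 2 or 3 or XY replicate 2 or 3, the interaction rose from 1790 to 2687 calls without E16.5 XY replicate 1, and uterine calls went from 3866 to 1949 without Amhr2+ replicate 1 and to 2521 without Gli1+ replicate 1. Same-numbered libraries of the sexes at E14.5 gave r of 0.0725, 0.0504 and 0.0508, and those of the uterine populations gave 0.00176, 0.221 and 0.243. Between the ages of a sex they gave -0.0813 to 0.0397.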

Other observations

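The balance within families differed between groups, given here as ratios of RPKM within each library and with no test. Fbn2 stood to Fbn1 at 1.52 to 1.55 in E14.5 XX, 1.42 to 1.5 in E14.5 XY, 1.23 to 1.34 in E16.5 XX and 1.07 to 1.22 in E16.5 XY libraries. Fbln1 stood to Fbln2 at 4.10 to 4.47 and 4.55 to 5.27 in XX libraries of E14.5 and E16.5, and at 2.36 to 2.52 and 2.80 to 3.13 in the XY libraries. Efemp1 stood to Efemp2 at 0.936 to 1.41 in E16.5 XY libraries and at 0.141 to 0.290 in the other fetal libraries.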
